A study of Sus scrofa with 12 samples.

Results

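Expression of the genes of oxygen sensing and vascular growth was examined in longissimus dorsi, the long muscle of the back, of 12 Iberian pigs. The 10 genes named for this purpose were HIF1A, EPAS1, ARNT, EGLN1, EGLN3, VHL, HIF1AN, VEGFA, VEGFB and ADM. They were looked up by gene symbol, and 8 had a row among the 25880 genes of each count table. VHL and VEGFB were not matched to a row and were not analysed here. The 10 genes were proposed with earlier results of these data known.

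All animals were castrated male Iberian pigs of a commercial population, fattened outdoors on acorns and grass and sampled after slaughter. The 6 High MB pigs had a high breeding value for muscle myoglobin (between 0.159 and 0.206) and a muscle myoglobin content of 2.48 ± 0.0657 mg/g (SD, n = 6). The 6 Low MB pigs had a low breeding value (between -0.248 and -0.149) and a content of 1.39 ± 0.147 mg/g (SD, n = 6). The groups were picked from the extremes of a genetic evaluation and received no treatment, so they differ in whatever else is inherited with myoglobin. Each pig gave 1 RNA-seq library of paired reads, counted per gene.

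Cells sense oxygen through hydroxylases that use it as a substrate. With oxygen present, EGLN enzymes hydroxylate the alpha subunits HIF1A and EPAS1, the VHL protein then marks these for degradation, and HIF1AN blocks their contact with coactivators. When oxygen is short the alpha subunits persist, pair with ARNT and switch on genes such as VEGFA, a growth factor for blood vessels, and ADM, a peptide that dilates them. EGLN1 and EGLN3 are themselves targets, which closes a feedback loop. In muscle the same system bears on capillary supply and on glycolysis, and myoglobin, the oxygen-binding protein on which the pigs were chosen, acts beside it. The alpha subunits and the hydroxylases are controlled largely at the protein level, which these RNA counts do not measure.

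The DNA element bound by HIF has the core ACGTG or GCGTG, and it was searched on both strands in the 250 bases before the RefSeq start of a gene (build Sscrofa11.1). The core was present at least once in 43.5% of the 19556 windows of the same length before protein-coding genes, so a match is common. Of the measured genes, 1 match each was found for ADM and ARNT and 0 for HIF1A, EPAS1, EGLN3, HIF1AN and VEGFA. Sites farther upstream or after the start lay outside the search, so 0 matches does not mean that a gene lacks the element. The window of ADM, on the minus strand at chr2:49231522-49231771, is given because ADM is a known HIF target, holds the core and varied most between pigs of the 8 genes. It runs 5′ to 3′ on the strand of the gene, and capitals mark the core, which reads CACGT on that strand.
ADM: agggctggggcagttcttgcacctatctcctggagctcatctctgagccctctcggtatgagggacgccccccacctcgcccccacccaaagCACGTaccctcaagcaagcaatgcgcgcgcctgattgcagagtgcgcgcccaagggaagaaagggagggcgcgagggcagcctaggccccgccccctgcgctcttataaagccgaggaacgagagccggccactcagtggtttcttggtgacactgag
The core began at position -158 from the start of ADM. These letters are a description of the window, and no binding was measured.

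Gene counts per library summed to between 38914271 and 91318334. They formed 2 depth classes, with 5 libraries (High MB pigs 4 and 6, Low MB pigs 1, 5 and 6) at 59227608 or more and 7 at 40001432 or less. The 10 genes of highest count took between 13.0% and 24.5% of a library, and High MB pig 2 and Low MB pig 4 had the lowest shares, 13.0% and 16.0%. High MB pig 2 also had the largest TMM normalization factor, 1.21 against 0.891 to 1.03 for the other 11 pigs. All 4 skeletal muscle markers with a row, ACTA1, CKM, DES and MYL1, were expressed, with summed levels between 38067 and 117471 CPM (counts scaled to a common library size with TMM factors, as defined in the edgeR package).

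None of the 8 genes passed the test of High MB against Low MB. Their log2 fold changes, High MB over Low MB, lay between -0.22 and 0.12, with 3 genes higher and 5 lower and a median of -0.05, beside -0.02 over the 13373 genes tested. All 8 genes had passed the filter on low counts. With edgeR's quasi-likelihood test, 0 of the 8 were called, which required an adjusted p (Benjamini-Hochberg) under 0.10 with a log2 fold change beyond 0.58 in either direction, and the background over all genes tested was 0%. At an unadjusted p under 0.05 the count was again 0 of 8, beside 8.46% of all genes. The exact two-sided permutation test of the 6 against 6 pigs gave 0 of 8 at p under 0.05, beside 9.09% of all genes. In 0 of 8 were the groups without overlap, beside 0.426% of all genes. DESeq2 also called 0 of 8, beside 0.151% of the 19220 genes with any count.

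**Figure D1:**
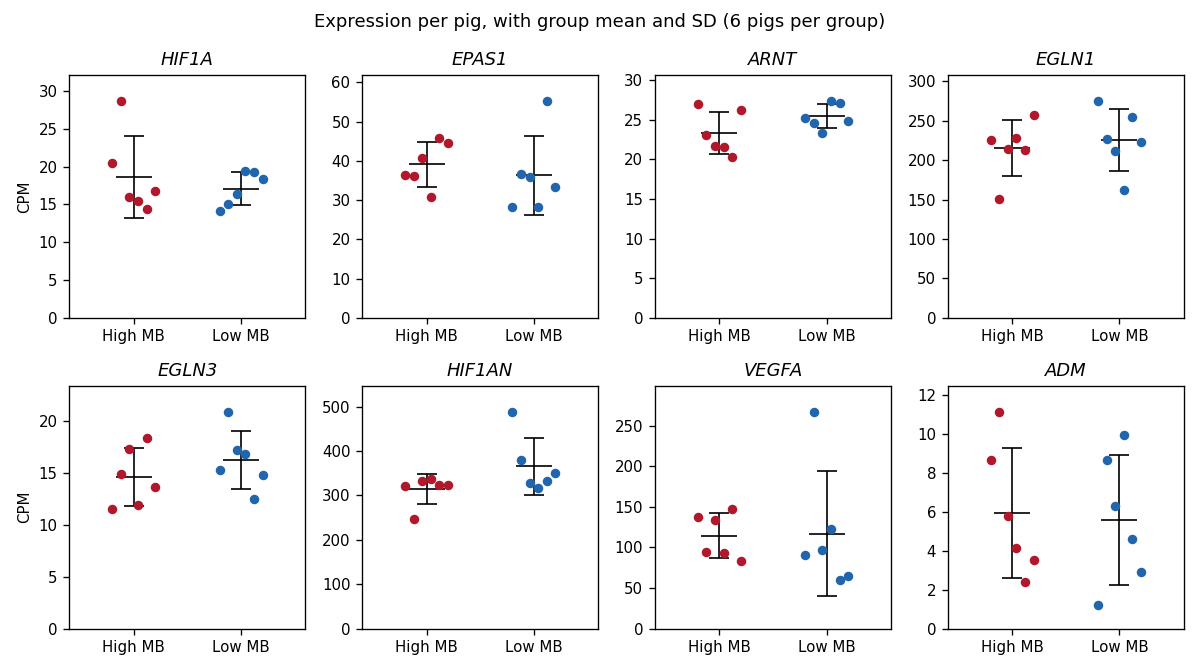
Expression of the 8 genes in each pig, in CPM on a linear axis from 0, with High MB pigs in red and Low MB pigs in blue. Bars show the mean and SD of 6 pigs, and the groups overlap for every gene, with Low MB pig 2 alone at 268 CPM of VEGFA.

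The transcription factor subunits came first in the pathway. HIF1A, the alpha subunit found in most cell types, lay at 14.4, 16.4 and 28.7 CPM (lowest, median and highest) in the High MB pigs and at 14.1, 17.3 and 19.4 CPM in the Low MB pigs. The value of 28.7 CPM belonged to High MB pig 2, and the other 5 High MB pigs lay within 14.4 to 20.5 CPM. High MB over Low MB, the change was 0.12 ± 0.16 (log2, SE, n = 6 per group; edgeR adjusted p = 0.860). Without High MB pig 2 it was -0.0234, the other sign.

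EPAS1, the alpha subunit also called HIF2 alpha and abundant in vessel walls, lay at 30.9, 38.6 and 45.9 CPM in the High MB pigs and at 28.1, 34.7 and 55.3 CPM in the Low MB pigs. The highest value of all was that of Low MB pig 5, and 5 of 6 High MB pigs stood above the Low MB median. Its change was 0.11 ± 0.16 (log2, SE; edgeR adjusted p = 0.883). Without Low MB pig 5 it was 0.27, with an unadjusted edgeR p of 0.0535.

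ARNT, the partner of both alpha subunits, varied least. It lay at 20.4, 22.4 and 27.0 CPM in the High MB pigs and at 23.4, 25.1 and 27.4 CPM in the Low MB pigs. Its biological coefficient of variation in the edgeR fit was 14.1%, and 2.74% of the genes tested had a lower one, the median being 23.7%. The change was -0.12 ± 0.0959 (log2, SE; edgeR adjusted p = 0.737), and its 95% interval of 0.796 to 1.06 in fold is the narrowest of the 8.

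Of the hydroxylases, HIF1AN and EGLN1 held the highest CPM of the 8 genes, and HIF1AN the largest difference between the groups in absolute size. HIF1AN, the asparagine hydroxylase that keeps HIF from its coactivators, lay at 246, 323 and 336 CPM in the High MB pigs and at 316, 341 and 489 CPM in the Low MB pigs. No High MB pig reached the Low MB median, although the groups overlapped between 316 and 336 CPM. The difference was -0.22 ± 0.13 (log2, SE; edgeR adjusted p = 0.640), and the exact permutation test gave p = 0.0758. The lowest High MB value was that of pig 2 and the highest Low MB value that of pig 1, each far from the rest of its group. The log2 difference was -0.14 without the former and -0.12 without the latter.

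EGLN1, the main proline hydroxylase of HIF under normal oxygen, lay at 151, 220 and 258 CPM in the High MB pigs and at 162, 225 and 275 CPM in the Low MB pigs. The lowest pig of each group was High MB pig 2 and Low MB pig 4, and the rest lay between 212 and 275 CPM. For EGLN1 the change was -0.07 ± 0.15 (log2, SE; edgeR adjusted p = 0.919). Without High MB pig 2 it was 0.0367, the other sign, and without Low MB pig 1 it was -0.0049.

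EGLN3, the proline hydroxylase known for strong induction in hypoxia, lay at 11.6, 14.3 and 18.4 CPM in the High MB pigs and at 12.5, 16.1 and 20.9 CPM in the Low MB pigs. Both groups covered nearly the same range. For EGLN3 the change was -0.15 ± 0.15 (log2, SE; edgeR adjusted p = 0.797).

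The targets VEGFA and ADM varied most. VEGFA lay at 83.1, 114 and 147 CPM in the High MB pigs and at 59.3, 94.0 and 268 CPM in the Low MB pigs. Low MB pig 2 alone held 268 CPM, and the next Low MB pig held 123 CPM. VEGFA changed by -0.03 ± 0.32 (log2, SE; edgeR adjusted p = 0.990). Without Low MB pig 2 it was 0.41, with an unadjusted edgeR p of 0.0732. The coefficient of variation of VEGFA was 38.5%, above that of 80.2% of the genes tested.

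ADM lay at 2.37, 4.98 and 11.2 CPM in the High MB pigs and at 1.23, 5.43 and 9.93 CPM in the Low MB pigs, a 9.04-fold range over the 12 pigs. Its counts per library were between 84 and 537, far above the floor of 3 counts. The coefficient of variation was 54.0%, above that of 93.0% of the genes tested. The fold change was 0.09 ± 0.45 (log2, SE; edgeR adjusted p = 0.974). With 1 pig left out at a time it ran from -0.17 (without High MB pig 2) to 0.35, and the sign turned in 4 of 12 fits (without High MB pigs 1 or 2 or Low MB pigs 1 or 6).

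**Figure D2:**
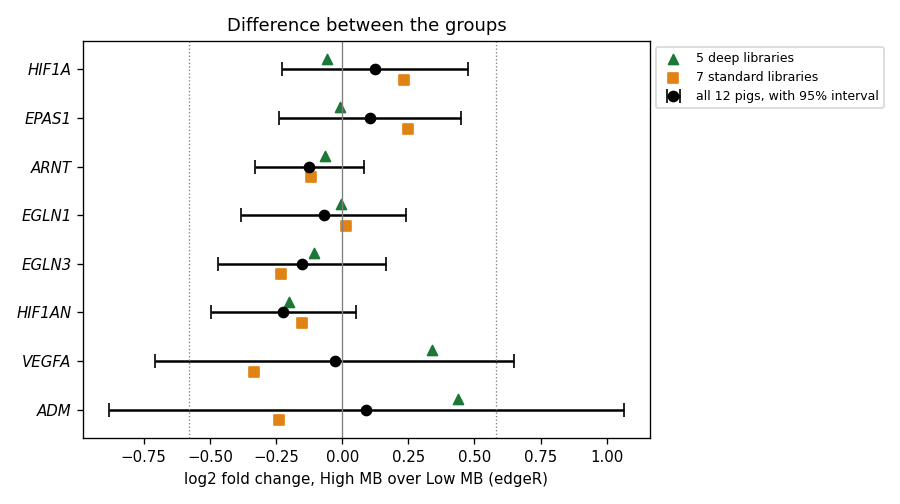
The log2 fold change of each gene, High MB over Low MB, with its 95% interval over 12 pigs (black), and the fold change within the 5 deep (green triangles) and the 7 standard libraries (orange squares). Dotted lines mark the limit of 0.58, and the intervals of 6 genes lie inside it while those of VEGFA and ADM do not.

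The intervals set what could have been seen. For HIF1A, EPAS1, ARNT, EGLN1, EGLN3 and HIF1AN the 95% interval of the log2 fold change lay within 0.58 on either side of 0. For VEGFA it ran from -0.71 to 0.65 and for ADM from -0.88 to 1.06, so a difference past that limit is not excluded in these genes. Within the depth classes, with 2 High MB and 3 Low MB deep libraries and 4 and 3 standard ones, the VEGFA fold change was 0.34 and -0.33, and that of ADM 0.44 and -0.24. HIF1A, at -0.06 and 0.23, EPAS1, at -0.01 and 0.25, and EGLN1, at -0.0046 and 0.01, also differed in sign between the classes, whereas ARNT, EGLN3 and HIF1AN were lower in High MB pigs in both. None of the 8 was called in either class.

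VEGFA differed between the depth classes themselves. The 5 deep libraries held 59.3 to 92.8 CPM, with a median of 83.1, and the 7 standard libraries 94.4 to 268 CPM, with a median of 134, so the classes did not overlap. This was so for VEGFA alone of the 8 genes and for 1.10% of all genes tested. The comparison was made after the values had been seen, and whether depth, or something prepared alongside it, has a part in the level of VEGFA was not tested. ADM had a median of 3.54 CPM in the deep and 8.64 CPM in the standard libraries, and EGLN1 255 and 213 CPM, in both cases with overlap.

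Levels can be set side by side between genes only per length, and RefSeq exon lengths of Sscrofa11.1 were used for this, which may differ from the gene models used in counting. EGLN1 stood highest at 78.7 ± 12.8 CPM per kb (SD, n = 12), followed by HIF1AN at 38.7 ± 6.37, VEGFA at 36.2 ± 17.3 and EPAS1 at 13.2 ± 2.77 CPM per kb. HIF1A (6.25 ± 1.40), ARNT (5.34 ± 0.515), EGLN3 (4.80 ± 0.875) and ADM (3.87 ± 2.14 CPM per kb) came last. The ranges of each pair of neighbours in this order overlapped. Within pigs, EGLN1 was above HIF1AN in 12 of 12 and EPAS1 above HIF1A in 12 of 12, whereas HIF1AN was above VEGFA in 6 of 12. Of the 2 proline hydroxylases measured, EGLN1 was 16.4-fold above EGLN3 per length, with no overlap between their ranges.

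**Figure D3:**
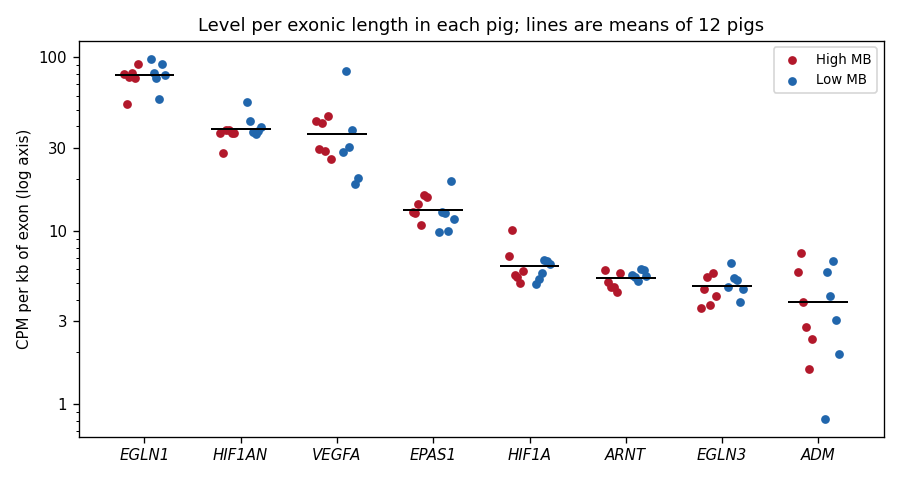
Level per exonic length in CPM per kb on a log axis for each of the 12 pigs, with genes ordered by the mean of all pigs (line). EGLN1 leads at 78.7 CPM per kb, and ADM is lowest at 3.87 with the widest scatter.

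How the genes varied together was examined over the 12 pigs with log2 CPM values. Of the 28 pairs, 7 had an unadjusted permutation p under 0.05 and 0 passed at an adjusted p under 0.05, Pearson or Spearman. For EGLN1 and ADM r was -0.68 (permutation p = 0.0145, adjusted p = 0.110) and rho = -0.59 (adjusted p = 0.275). When the 2 pigs farthest from the median of EGLN1 (High MB pig 2, Low MB pig 4) were left out, r was -0.50. The deep libraries alone gave -0.52 and the standard ones -0.46.

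HIF1A and its inhibitor HIF1AN gave r = -0.75 (permutation p = 0.0117, adjusted p = 0.110) and rho = -0.69 (adjusted p = 0.275), with -0.91 within High MB, -0.83 within Low MB and -0.52 without the 2 pigs farthest in HIF1A. HIF1A gave r = -0.66 with EGLN1 and r = 0.63 with ADM. The relation of HIF1A to EGLN1 rested on the 2 pigs farthest in EGLN1, since r was -0.02 once both were left out.

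The 2 hydroxylases of high level, EGLN1 and HIF1AN, gave r = 0.73 (permutation p = 0.00725, adjusted p = 0.110; rho = 0.64), and r was 0.59 once those 2 pigs were left out. EGLN3 and VEGFA, both hypoxia targets, gave r = 0.63, but 0.03 among deep and 0.48 among standard libraries. Leaving out High MB pig 1 took that pair to r = 0.83 (permutation test, adjusted p = 0.0384), and leaving out Low MB pig 2 took it to 0.40. HIF1AN and ADM gave r = -0.68, -0.80 without Low MB pig 2 (permutation test, adjusted p = 0.0286, but 0.222 for rho = -0.71) and 0.06 without High MB pig 2 and Low MB pig 1, so the relation rests on those 2.

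Muscle holds several cell and fibre types, and the levels of the 8 genes were compared with the summed CPM of 8 marker lists, 64 relations in all, chosen after the values had been seen. EGLN1 rose with the fast fibre genes TNNI2, TNNC2, TNNT3, ATP2A1 and ACTN3, which encode the troponins, the calcium pump and the actinin of fast-twitch fibres. Over 12 pigs r was 0.88 (permutation p = 1e-05, the smallest that the resamples can give, and adjusted p = 0.00064) and rho 0.90 (adjusted p = 0.0122). The relation held within High MB (r = 0.98) and Low MB (0.90), in deep (0.94) and standard libraries (0.78), and without the 2 farthest pigs (0.76). High MB pig 2 was lowest in both, with 151 CPM of EGLN1 and 20915 CPM of the fast fibre genes, and Low MB pig 1 highest in both, with 275 and 49192 CPM. Other members also followed the fast fibre genes, without passing the adjusted permutation test. HIF1AN gave r = 0.77 (adjusted p = 0.153) and rho = 0.76 (adjusted p = 0.0875), HIF1A r = -0.75 (adjusted p = 0.153) and ADM r = -0.61 (adjusted p = 0.235). Without High MB pig 2 and Low MB pig 1, r was 0.23 for HIF1AN, 0.03 for HIF1A and -0.33 for ADM.

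EGLN1 also rose with the share of counts in the 10 highest genes, at r = 0.89 (permutation p = 0.00031, adjusted p = 0.00496 over 16 relations) and rho = 0.73 (adjusted p = 0.0441), with 0.92 in the standard but 0.31 in the deep libraries. None of the 5 fast fibre genes was among those 10, which did hold the muscle genes ACTA1 and CKM. Of the 10, ENSSSCG00000029441 and ENSSSCG00000018003 had no symbol. From the fast fibre list, MYH1, MYH2, MYH4 and MYLPF were not matched to a row. Whether that share and the fast fibre level are separate measures was not tested. With the depth of the library EGLN1 gave r = 0.67 (adjusted permutation p = 0.0785) and rho = 0.75 (adjusted p = 0.0441), with r = 0.70 among deep and -0.30 among standard libraries. Of the same 16 relations, ADM with the share of the 10 highest genes gave r = -0.62 (adjusted permutation p = 0.108) and rho = -0.75 (adjusted p = 0.0441), with r = 0.31 among deep and -0.60 among standard libraries. The part of depth and of that share in the relations of EGLN1 and ADM was not tested.

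EPAS1 rose with the 10 endothelial genes that had a row, among them PECAM1, CDH5 and TIE1, which are made by the lining of blood vessels. Over 12 pigs r was 0.85 (permutation p = 0.0005, adjusted p = 0.016) and rho 0.78 (adjusted p = 0.0875, which misses the limit). It was 0.79 within High MB, 0.92 within Low MB, 0.85 in deep libraries, 0.90 in standard ones and 0.73 without the 2 farthest pigs. Low MB pigs 1 and 4 were lowest in both, with 28.1 and 28.3 CPM of EPAS1 and 165 and 168 CPM of the endothelial genes. In bulk muscle, fewer cells of a type and less RNA per cell cannot be told apart. The other 62 relations had adjusted permutation p-values for Pearson's r of 0.0621 and above, the next being HIF1AN with the macrophage genes (r = -0.79, but -0.40 without the 2 farthest pigs) and EGLN3 with the adipocyte genes (r = -0.76, adjusted p = 0.0747, and -0.81 without the 2 farthest pigs).

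**Figure D4:**
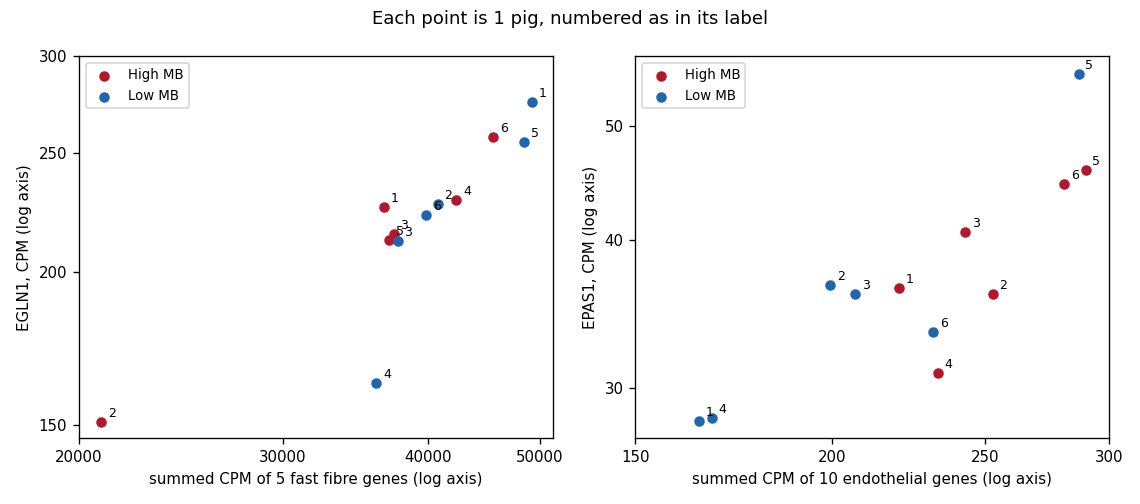
Left, EGLN1 against the summed level of 5 fast fibre genes, and right, EPAS1 against the summed level of 10 endothelial genes, in CPM on log axes, with 1 point per pig (High MB red, Low MB blue, numbered by individual). EGLN1 runs from 151 CPM in High MB pig 2 to 275 CPM in Low MB pig 1, and EPAS1 from 28.1 CPM in Low MB pig 1 to 55.3 CPM in Low MB pig 5.

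The levels of the 8 genes were also set against the myoglobin content of the muscle within each group. Of 16 relations, 0 had an unadjusted exact permutation p under 0.05, and the lowest adjusted p was 1 for Pearson's r and 0.981 for Spearman's rho.

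Other genes of the pathway did not pass the test either. Of 11 further HIF pathway genes tested, 0 were called, 10 were lower in High MB pigs and the median log2 fold change was -0.14, beside 46.9% of all genes higher and a median of -0.02. An unadjusted edgeR p under 0.05 was found for 2 of the 11, beside 8.46% of all genes. The 3 of lowest p were SIAH1, a ubiquitin ligase that removes EGLN proteins (-0.43, edgeR adjusted p = 0.563), and the coactivators EP300 (-0.21, adjusted p = 0.564) and CREBBP (-0.24, adjusted p = 0.590). EP300 lay at 52.1 ± 5.05 CPM in the High MB and 60.2 ± 1.54 CPM in the Low MB pigs (SD, n = 6 each). P4HTM was at 0 in every pig, HIF3A and ARNT2 did not pass the filter on low counts, and EGLN2 was not matched to a row.

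Of 32 further HIF target genes tested, 0 were called, 14 were higher and 18 lower, with a median of -0.08. The 4 with an unadjusted edgeR p under 0.05 were the collagen cross-linking enzyme LOX (0.68), the glycolytic PFKL (0.49) and NDRG1 (0.43), all higher in High MB pigs, and the secreted STC2 (-0.76), the last named after its value was seen. They make 4 of 32, beside the background of 8.46% of all genes. Each had an adjusted p of 0.563 in the edgeR fit. From the same list SLC2A1, SLC2A3, CA9, BNIP3 and IGFBP3 were not matched to a row. CA12 and TF did not pass the filter on low counts.

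The receptors for VEGF and adrenomedullin did not pass the test either. Of 7 VEGF family and receptor genes, 0 were called and 6 were higher in High MB pigs, with a median of 0.28 and 1 unadjusted edgeR p under 0.05. The lowest p was that of FLT4, the receptor of lymphatic vessels, at 0.659 ± 0.207 CPM in High MB and 0.256 ± 0.241 CPM in Low MB pigs (log2 fold change 1.37, edgeR adjusted p = 0.563), followed by the neuropilins NRP2 (0.52) and NRP1 (0.32). FLT4 had as few as 1 count in a library, under the floor of 3 counts, so the size of its fold is uncertain. PGF was not matched to a row. Of the 5 adrenomedullin receptor genes, 0 were called and 5 were higher, with a median of 0.39, 2 unadjusted edgeR p-values under 0.05 and the lowest p for RAMP2 (0.45), ACKR3 (0.54) and CALCRL (0.39). Marker lists of several cell types gave values on the same side, beside 46.9% of all genes tested higher in High MB pigs and 8.46% with an unadjusted edgeR p under 0.05. Of the endothelial markers, which share KDR with the VEGF receptors, all 10 were higher in High MB pigs, 2 with an unadjusted edgeR p under 0.05 and 0 called, with a median of 0.28 and summed levels of 221 to 290 CPM in High MB against 165 to 287 CPM in Low MB pigs. Higher in High MB pigs were also 6 of 6 mural (median 0.38), 5 of 5 fibroblast (0.64), 5 of 5 adipocyte (0.90), 5 of 5 macrophage (0.93), 2 of 2 erythroid (0.75) and 6 of 6 slow fibre genes (0.54), and 0 of 5 fast fibre genes (-0.12), with 0 called in each list. An unadjusted edgeR p under 0.05 was found for 1 mural, 2 fibroblast, 2 adipocyte, 4 macrophage, 2 erythroid, 5 slow fibre and 1 fast fibre gene of these. The part of these cell and fibre types in the receptor values was not tested.

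Genes whose log2 CPM followed each of the 8 most closely over the 12 pigs were named by the highest Pearson r, as a description. For HIF1A these were PI4K2B (r = 0.93), KPNA2 (0.93) and ANKRD49 (0.92). For EPAS1 they were ENSSSCG00000016548 (0.91), TNFRSF21 (0.88) and TBX2 (0.87), and for ARNT ENSSSCG00000039249 (0.92), LCORL (0.90) and MBTD1 (0.89). EGLN1 was followed by ASB12 (0.96), ENSSSCG00000032073 (0.96) and ENSSSCG00000004497 (0.96), EGLN3 by VAC14 (0.88), ENSSSCG00000012382 (0.86) and SMPD4 (0.86), and HIF1AN by OXR1, TFDP2 and GAA (0.93 each). VEGFA was followed by FBXL5 (0.93), DZANK1 (0.93) and SMIM29 (0.91), and ADM by CCNT2 (0.95), ENSSSCG00000022925 (0.94) and RNGTT (0.93). These were picked as the highest of all genes tested, so their r carries no test.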

How the data were processed

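RNA from the muscle of 12 pigs was sequenced with 1 library each. According to the paper and the submitters' processing notes, the authors used Trim Galore for trimming, HISAT2 for alignment (Sscrofa11.1) and HTSeq for counting, and deposited read counts per gene without normalization. The annotation release and strand setting of the counting are not given in the sources used here. How reads of overlapping or antisense genes were assigned is therefore not known. Between 47.0% (Low MB pig 6) and 48.2% (Low MB pig 5) of the uniquely aligned reads of a library were assigned to a gene. The 5 summary lines of each table were kept out, as were the 12 tables by transcript. Of 25880 gene IDs, 14857 had a symbol.

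Groups came from the labels. Counts were fitted with edgeR 4.0.16 in R 4.3.3 (TMM, filterByExpr with group, glmQLFit, glmQLFTest), with Benjamini-Hochberg adjustment over 13373 genes. The same fit was also run on simulated counts as a check of the code, with its outcome not given here. Calls needed an adjusted p under 0.10 with a log2 fold change beyond 0.58 in either direction. DESeq2 (1.42.0), the tool of the paper, was an alternative, beside other scalings, filters, depth classes and pigs left out. CPM used TMM, and log2 CPM a prior count of 2. Exact tests used all 924 regroupings, correlations 100000 resamples, and those within groups all 720 pairings. Depth was 38914271 to 91318334 gene counts per pig, and floors of 3 counts cover counting error only. Counts of any 2 replicates differed beyond counting noise.

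The rule for naming genes took all members with a row, the 3 of lowest p in the HIF pathway, HIF target, VEGF and adrenomedullin receptor lists, and the 3 genes of highest r with each member. Outside it, STC2, genes at 0 or under the filter, and single cell or fibre type markers were named after their values were seen. Genes of the lists without a row, and genes of highest count without a symbol, were named as well. Members and lists were chosen with earlier results of these data known. Same-numbered pigs of both groups share only a number. Promoter windows and exon lengths are from RefSeq on Sscrofa11.1. The window of 1 gene is not reported here.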

Additional observations from a re-analysis of the deposited data

Results flagged for a closer look

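Of the 16 sets of 6 pigs (8 genes, 2 groups), 4 had a pig far from the others by Dixon's criterion, where chance gives about 1 in 20. EPAS1 in Low MB pig 5 was 55.3 CPM, with the next pig at 36.7 CPM. HIF1AN in High MB pig 2 was 246 CPM, with the next pig at 320 CPM, and HIF1AN in Low MB pig 1 was 489 CPM, with the next at 379 CPM. VEGFA in Low MB pig 2 was 268 CPM, with the next at 123 CPM. High MB pig 2 also had the lowest share of counts in the 10 highest genes, 13.0%. Low MB pigs 1 and 5 belonged to the deep libraries and Low MB pig 2 to the standard ones.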

How the results depend on the processing

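None of the 8 genes was called under any alternative run. Over all genes, the count of 0 became 29 with DESeq2 and 1 in the deep libraries only. Of the 88 log2 fold changes under 11 other settings, 80 kept their sign. VEGFA turned to 0.0395 with upper quartile size factors, 0.15 with the individual number as a replicate block, 0.34 in the deep libraries and 0.0631 without High MB pig 2 and Low MB pig 4 (an alternative chosen after seeing the data). In the deep libraries HIF1A was -0.0555 and EPAS1 -0.00978, and in the standard libraries EGLN1 was 0.0128 and ADM -0.24. The causes were not tested. The block changed no call, and same-numbered pigs deviated with r between -0.21 and 0.14, none being best matched to its own number. Leaving out 1 pig at a time gave ranges of -0.0234 to 0.19 for HIF1A, 0.04 to 0.27 for EPAS1, -0.17 to -0.08 for ARNT, -0.13 to 0.0367 for EGLN1, -0.23 to -0.06 for EGLN3, -0.25 to -0.12 for HIF1AN, -0.16 to 0.41 for VEGFA and -0.17 to 0.35 for ADM. Of these 96 values, 11 changed sign, for HIF1A and EGLN1 without High MB pig 2, for VEGFA without High MB pigs 2, 4 or 6 or Low MB pigs 2 or 4, and for ADM without High MB pigs 1 or 2 or Low MB pigs 1 or 6. The number of member pairs passing the adjusted permutation test was 0, and 0 to 1 with 1 pig left out. With RLE size factors, 1 pig left out at a time or High MB pig 2 and Low MB pig 4 left out (chosen after seeing the data), r of EGLN1 with the fast fibre genes stayed within 0.82 to 0.98, and r of EPAS1 with the endothelial genes within 0.81 to 0.90.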
